A study of Oryctolagus cuniculus with 6 samples.

Results

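The respiratory chain and the ATP synthase of the inner mitochondrial membrane were followed through their transcripts in rabbit blastocysts. Their members were taken as every non-control probe whose deposited description names NADH dehydrogenase, succinate dehydrogenase, ubiquinol-cytochrome c reductase, cytochrome c oxidase or ATP synthase. That rule found 139 of 43603 probes, which stand for 43 genes, of which 40 have a RefSeq symbol. The genes set beside them are the 8148 with a symbol on tested probes. Each gene is represented by its brightest probe over the 6 arrays. The 43 genes are 33 structural subunits and 10 genes that help to assemble a complex or to translate one of its subunits. By complex they fall into 19 genes of complex I, 2 of complex II, 3 of complex III, 11 of complex IV and 8 of complex V. The label "subunits" holds for complexes I, III, IV and V, whereas complex II is represented only by 2 assembly factors.

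Complex I, the NADH dehydrogenase, and complex II, the succinate dehydrogenase, pass electrons to ubiquinone. Complex III hands them to cytochrome c and complex IV, the cytochrome c oxidase, to oxygen. Complexes I, III and IV pump protons, and complex V, the ATP synthase, lets the protons flow back to make ATP. The mammalian blastocyst raises its oxygen use when the outer epithelium begins to pump fluid into the cavity. A few core subunits are encoded by mitochondrial DNA, and the rule matched no probe for these, so every member is a nuclear gene.

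Each of the 6 two-colour arrays set RNA of treated against untreated 6 day old New Zealand White rabbit blastocysts. On 3 arrays the treated embryos had been vitrified, that is cooled without ice in concentrated dimethyl sulphoxide and ethylene glycol, and on 3 arrays they had been slowly frozen in dimethyl sulphoxide with seeded ice. Both kinds had then been transferred to recipient females and recovered as viable embryos, while the controls were untreated embryos that developed in vivo, so cryopreservation and transfer cannot be told apart. The labels call the replicates biological, but the number of embryos and donors behind an extract is not given in the sources used here, so p-values measure the spread between these extracts. In bulk RNA, fewer cells of a type and less RNA per cell cannot be told apart. Arrays with the same replicate number name the same control extract, so both comparisons share their controls. Dyes were swapped on replicate 2, where treated embryos were labelled with Cy3 and controls with Cy5.

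Between 44.7% and 58.0% of spots were well above background in green and between 64.2% and 74.5% in red. Of the 43 genes, 42 were well above background in all 12 channel measurements and SDHAF1 in 8, and no member's probe was saturated. All 43 passed the filter on dim probes. Of the trophectoderm markers, 6 of 10 were measured, among them GATA3 and KRT8, and of the epiblast markers 3 of 7, among them POU5F1. The members' values are log2 ratios of treated over control. A fitted change is the treatment coefficient of a limma model that also holds a dye term, given with its standard error (SE). The n = 3 is the number of arrays of that treatment. The spread behind the SE is estimated for each gene over all 6 arrays together, so a gene has the same SE for both treatments. The SE is thus not the spread of a treatment's own 3 arrays. A fitted change can differ from the plain mean of the arrays where the dye term is large.

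The sequences below are the 60-base probes, written 5′ to 3′, of the genes whose array values are discussed singly. They come from the deposited array files, all in lower case except where stated. All but the R86530 probe read as coding sequence of the named gene. Chromosome positions are those printed in the array files, whose genome build is not given in the sources used here.
NDUFB5 (chr14:75078179-75078238, plus strand): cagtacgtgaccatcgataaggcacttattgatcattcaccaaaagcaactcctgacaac
NDUFB11 (chrX:32261600-32261659, minus strand): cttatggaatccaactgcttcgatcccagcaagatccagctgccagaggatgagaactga
NDUFAF2 (chr11:77189470-77189529, plus strand): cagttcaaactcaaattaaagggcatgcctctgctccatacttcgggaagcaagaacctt
NDUFAF3 (chr9:16651655-16651829, plus strand): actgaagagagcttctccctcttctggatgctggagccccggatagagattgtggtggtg
COX7B2 (chr2:35238759-35238818, minus strand): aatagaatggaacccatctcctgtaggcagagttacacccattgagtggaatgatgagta
ATP5F1A (chr9:87502369-87502428, minus strand): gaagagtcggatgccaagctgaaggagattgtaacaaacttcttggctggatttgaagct
ATP5PB (chr13:52757224-52757283, minus strand): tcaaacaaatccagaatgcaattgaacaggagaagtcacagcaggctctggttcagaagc
ATPAF1 (chr13:119961186-119961245, plus strand): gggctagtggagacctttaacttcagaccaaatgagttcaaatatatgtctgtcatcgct

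The probe that represents subunit Va of cytochrome c oxidase is shown because its strand limits what it measures. The array files list it under the human EST name R86530 and give it no position.
R86530: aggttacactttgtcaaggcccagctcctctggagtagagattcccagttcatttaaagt
Its reverse complement, not the printed strand, reads as the end of the subunit Va coding sequence as that protein is known in human. The probe therefore has the sense of the strand opposite to the mRNA, and its values are not taken as the level of the subunit Va transcript. By the description rule R86530 is still counted among the members and the subunits of complex IV.

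The pair of subunit VIa paralogues is shown because both probes cover the same stretch of the coding sequence, up to its stop codon. In other mammals COX6A1 is the widely expressed form and COX6A2 the form of heart and skeletal muscle. Capitals mark the 19 of 60 bases at which the probes differ.
COX6A1: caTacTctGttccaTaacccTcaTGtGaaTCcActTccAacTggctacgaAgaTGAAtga
COX6A2: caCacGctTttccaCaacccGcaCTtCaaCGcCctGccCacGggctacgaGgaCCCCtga
The COX6A2 probe lists 2 RefSeq accessions, and 9 of the 43 probes list more than 1. A symbol was taken from RefSeq only where a probe's matched accessions pointed to 1 gene. COX6A2 was named by its description, since 1 of its 2 probes matches both gene copies. Beyond this matching, whether the accessions are variants or separate copies was not tested.

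In the comparison of vitrified with untreated blastocysts, no member passed limma's test at an adjusted p of 0.05 (Benjamini-Hochberg over all tested probes), where 0.0195% of 30761 probes passed higher and 0% lower. No member can therefore be called changed after vitrification. At an unadjusted p under 0.05 there were 6 members higher and 3 lower of 43, against 9.99% of probes higher and 7.4% lower, or 17.4% in either direction. The members' median change was -0.04, with 16 above and 27 below 0, and the median over all 8148 genes was -0.0042. The lowest adjusted p of a member was 0.176. The 95% confidence interval of the change lay within a 2-fold change in either direction for 39 of the 43 genes, the exceptions being NDUFB11, NDUFAF2, R86530 and COX7B2.

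In the comparison of slowly frozen with untreated blastocysts no member passed either, where 0.0878% of probes passed higher and 0.0975% lower, or 0.185% in either direction. The unadjusted p was under 0.05 for 4 members higher and 2 lower, against 6.06% and 7.17% of probes, or 13.2% in either direction. The median change was 0.05, with 24 above and 19 below 0. The lowest adjusted p was 0.162, and 40 of the 43 intervals lay within a 2-fold change, the exceptions being NDUFAF2, R86530 and COX7B2.

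Vitrified and slowly frozen blastocysts were compared by the contrast of both coefficients, where 0% of all probes passed, and no member did. At an unadjusted p under 0.05 there were 0 members higher and 4 lower in vitrified embryos, against 4.06% and 3.48% of probes, or 7.54% in either direction. The median difference was -0.02, and the 95% interval of the difference lay within a 2-fold change for 41 of the 43 genes, all but R86530 and COX7B2.

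**Figure D1:**
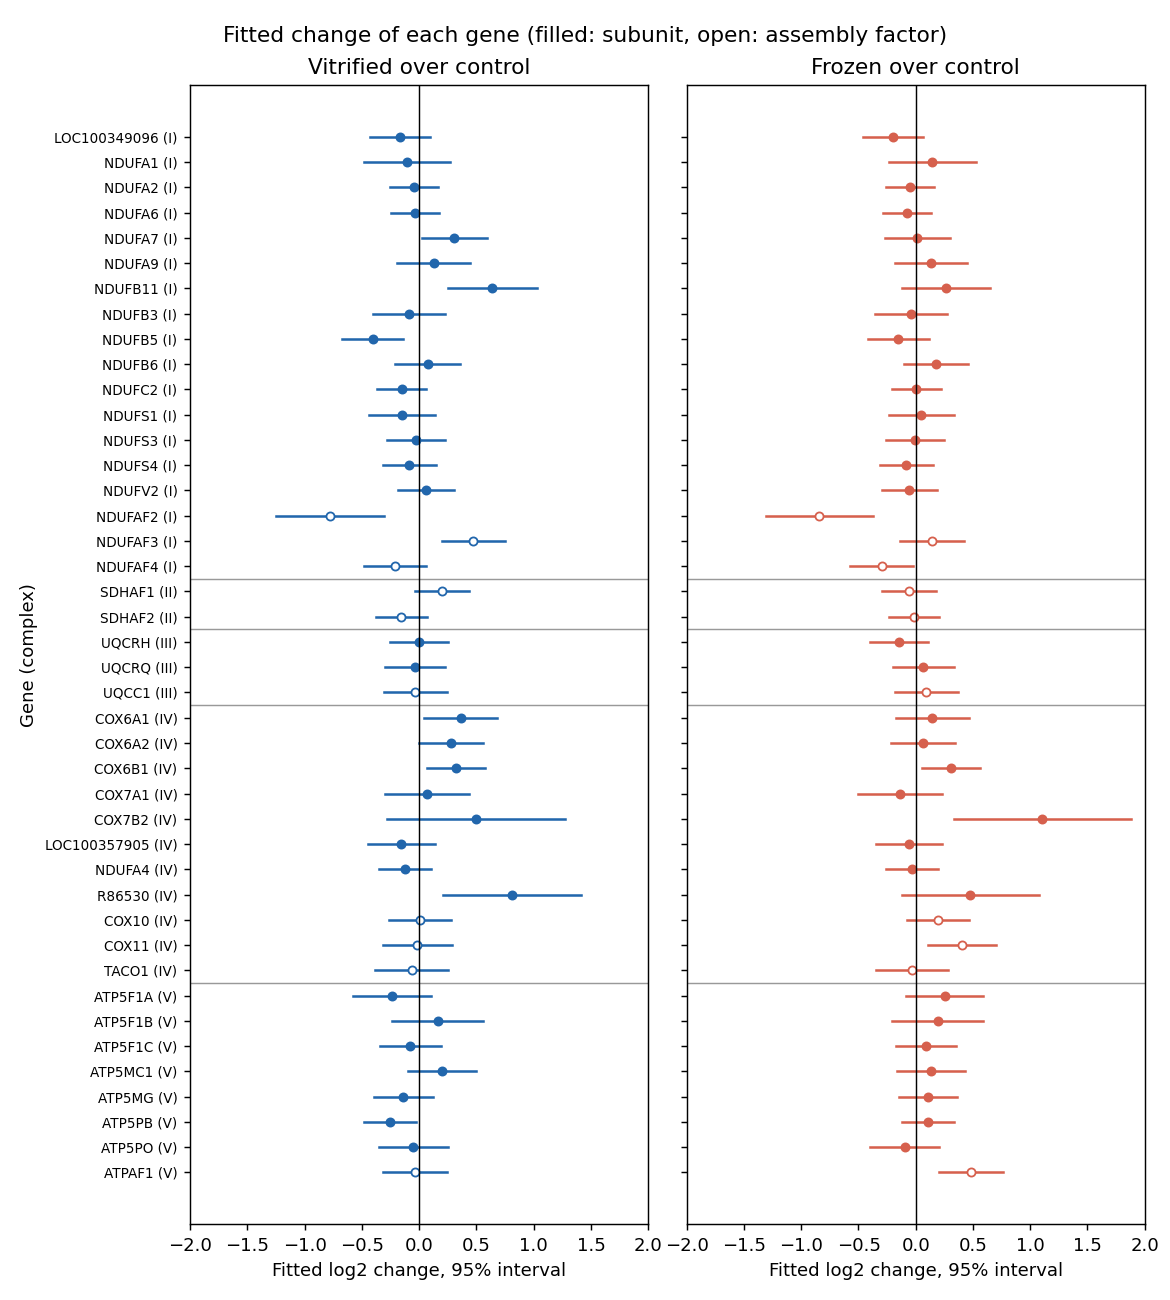
Fitted log2 change with its 95% confidence interval for 42 of the genes (rows, grouped by complex), vitrified over control on the left and frozen over control on the right; filled points are subunits and open points assembly factors. Intervals are widest for COX7B2 and R86530, and NDUFAF2 lies lowest in both panels.

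Among the complex I assembly factors, NDUFAF2, a chaperone that joins complex I late in its assembly, had the lowest fitted change of the 43 genes in both comparisons with the controls. Its log2 ratios were -1.26, -0.69 and -0.50 on vitrified arrays 1, 2 and 3. On frozen arrays 1, 2 and 3 they were -0.52, -0.70 and -1.43. All 6 arrays lay below 0, and the ranges of both treatments overlapped. The fitted change was -0.78 ± 0.20 (SE, n = 3, adjusted p = 0.182) after vitrification and -0.84 ± 0.20 (adjusted p = 0.162) after freezing. The 95% intervals ran from -1.25 to -0.31 and from -1.31 to -0.37. Its 5 probes, which start between 77189470 and 77189474 and so overlap almost fully, gave -0.78 to -0.70 and -0.84 to -0.79. These probes share 1 stretch of the transcript and are not separate measurements of it.

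NDUFAF3, which acts early in building the part of complex I that binds ubiquinone, stood on the other side of 0 in vitrified embryos. It was at 0.58, 0.63 and 0.09 on the vitrified arrays and at -0.03, 0.23 and 0.11 on the frozen arrays. Vitrified arrays 1 and 2 were above every frozen array, while vitrified array 3 was not. Fitted over the arrays, the change was 0.47 ± 0.12 (adjusted p = 0.176) after vitrification and 0.14 ± 0.12 (adjusted p = 0.675) after freezing. NDUFAF4, a partner of NDUFAF3 in human cells, was at 0.03, -0.38 and -0.16 after vitrification. After freezing it was at 0.01, -0.36 and -0.43, with a fitted change of -0.30 ± 0.12 (adjusted p = 0.339). The assembly factors of complex I thus lay on both sides of 0.

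The 16 subunits of complex I had a median of -0.06 after vitrification, with 5 above and 11 below 0, and of -0.02 after freezing, with 7 above and 9 below. The 4 subunits of the NADH-oxidising arm, the iron-sulphur subunit NDUFS1, NDUFV2 and the accessory NDUFS4 and NDUFA2, spanned -0.15 to 0.06 after vitrification and -0.08 to 0.05 after freezing. Nearer the ubiquinone site, the core subunit NDUFS3 and the accessory NDUFA6, NDUFA7 and NDUFA9 spanned -0.04 to 0.31 and -0.08 to 0.14. None of these genes had a change near that of NDUFAF2. The 7 accessory subunits of the membrane arm, NDUFA1, NDUFB3, NDUFB5, NDUFB6, NDUFB11, NDUFC2 and LOC100349096, spanned more, with -0.41 to 0.64 and -0.20 to 0.26.

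NDUFB11, an accessory subunit of the membrane arm encoded on the X chromosome, was at 0.76, 0.99 and -0.15 on the vitrified arrays. On the frozen arrays it was at 0.04, 0.56 and -0.13. Each treatment thus had arrays on both sides of 0. The model gave a change of 0.64 ± 0.17 (adjusted p = 0.182) after vitrification, with a 95% interval of 0.25 to 1.03, and 0.26 ± 0.17 (adjusted p = 0.557) after freezing. NDUFB5, another accessory subunit of the membrane arm, was at -0.61, -0.46 and -0.18 after vitrification and at -0.21, -0.05 and -0.22 after freezing. It was the only member besides NDUFAF2 below 0 on all 6 arrays, which held for 4.62% of probes, with a fitted change of -0.41 ± 0.11 (adjusted p = 0.188) after vitrification. Its 5 overlapping probes gave -0.43 to -0.36.

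NDUFA7, a subunit of the peripheral arm near the ubiquinone site, was at 0.54, 0.37 and 0.01 on the vitrified arrays. On the frozen arrays it stayed between -0.04 and 0.06. The difference between treatments was 0.29 ± 0.17 (adjusted p = 0.729) and did not pass the test. The gene LOC100349096, described as similar to beta subcomplex subunit 1, was at -0.38, 0.01 and -0.43 after vitrification and at -0.73, 0.23 and -0.40 after freezing. Both arrays with swapped dyes were its only values above 0.

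For complex II, SDHAF1, which helps to insert iron-sulphur clusters into succinate dehydrogenase, was at 0.17, 0.27 and 0.22 on the vitrified arrays and at -0.02, -0.24 and 0.12 on the frozen arrays. It was the only member with all vitrified arrays above all frozen arrays, 2.33% of members, where this held for 5.75% of probes. The difference was 0.26 ± 0.14 (adjusted p = 0.709), and its probe was well above background in 2 of 3 treated and 2 of 3 control channels of each treatment. SDHAF2, which attaches the flavin cofactor, was at -0.15, -0.21 and -0.10 after vitrification and at -0.13, 0.01 and 0.08 after freezing. Neither factor passed the test in any comparison.

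Complex III was represented by UQCRH, the hinge protein at the cytochrome c1 site, by UQCRQ, a small membrane subunit, and by UQCC1, which helps to make cytochrome b. UQCRH was at -0.05, 0.16 and -0.27 on the vitrified and at -0.11, -0.01 and -0.46 on the frozen arrays. UQCRQ was at 0.09, -0.15 and -0.01, and at -0.14, 0.11 and 0.27. UQCC1 was at 0.28, -0.09 and -0.11, and at 0.29, -0.21 and 0.38. Each of these genes had arrays on both sides of 0 within the vitrified group. Their fitted changes lay between -0.03 and -0.00 after vitrification and between -0.14 and 0.09 after freezing. The other 2 probes of UQCRQ, from another stretch, gave 0.17 and 0.19 after vitrification, against -0.03 for the brightest, so its sign differed between probes.

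**Figure D2:**
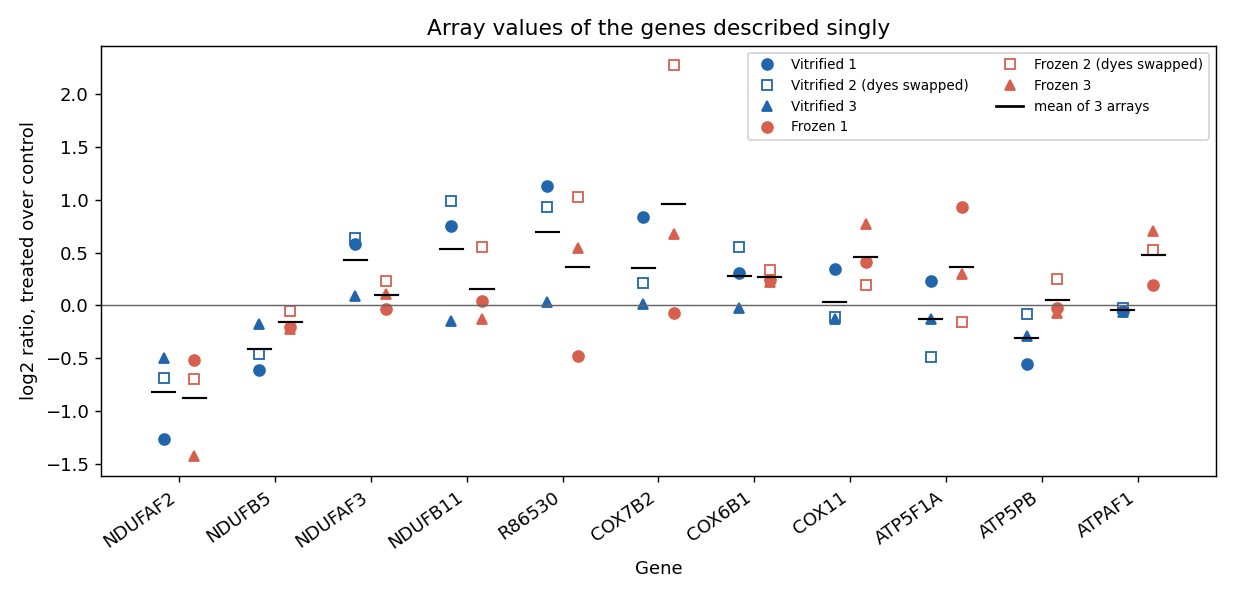
log2 ratio of treated over control on each array (vertical axis) for 11 genes described singly; blue marks vitrified and red frozen arrays, open squares the arrays with swapped dyes, and black bars the mean of 3 arrays. NDUFAF2 lies below 0 on all 6 arrays, COX7B2 on frozen array 2 stands at 2.27, and the vitrified values of ATPAF1 lie within -0.06 to -0.02.

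The 8 subunits of complex IV had a median of 0.30 after vitrification, the highest among the complexes' subunits, with 6 above and 2 below 0, and a median of 0.10 after freezing, with 5 above and 3 below. Without R86530 these medians were 0.28 and 0.06. Over all 11 complex IV genes the median was 0.25, 0.21 and -0.02 on vitrified arrays 1, 2 and 3. With a trend on probe G and C content removed, COX6B1, COX6A2 and COX7A1 were at 0.22, 0.19 and -0.0044 after vitrification. COX6A1 and COX7B2 were then at 0.36 and 0.50. COX6B1, which faces the intermembrane space where cytochrome c docks, was at 0.31, 0.55 and -0.02 on the vitrified arrays. It was at 0.24, 0.34 and 0.22 on the frozen arrays, all above 0 and close together. With the dye term, the change was 0.32 ± 0.11 (adjusted p = 0.219) after vitrification and 0.31 ± 0.11 (adjusted p = 0.287) after freezing, and both comparisons share their controls. COX6A1 was at 0.74, 0.33 and 0.06 on the vitrified and at 0.16, 0.10 and 0.21 on the frozen arrays. It was the only member above 0 on all 6 arrays, which held for 5.54% of probes, with fitted changes of 0.36 ± 0.14 (adjusted p = 0.244) and 0.15 ± 0.14 (adjusted p = 0.719).

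Its paralogue COX6A2 was at 0.25, 0.32 and 0.13 after vitrification and at -0.35, 0.27 and 0.14 after freezing. The muscle form and the common form of subunit VIa therefore lay on the same side of 0 after vitrification, with fitted changes of 0.28 ± 0.12 and 0.36 ± 0.14. The COX6A2 probe was far dimmer, at a mean log2 intensity of 8.18 against 16.62 for COX6A1. With a trend on probe G and C content removed, the changes were 0.19 for COX6A2 and 0.36 for COX6A1. Whether COX6A1 transcript adds to the COX6A2 signal was not tested. COX7A1, in other mammals the muscle form of subunit VIIa, was at -0.07, 0.47 and -0.45 on the vitrified and at -0.68, -0.01 and 0.02 on the frozen arrays. NDUFA4, first described in complex I and now counted to complex IV, was at -0.30, 0.03 and -0.18, and at -0.03, -0.07 and -0.06. The gene LOC100357905, described as similar to subunit VIIc, had fitted changes of -0.16 and -0.06. These last 3 genes stayed within their spread around 0.

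COX7B2, a subunit VIIb paralogue that is known from testis in human, had the highest change of the 43 genes after freezing, and that value came from 1 array. It was at -0.07, 2.27 and 0.68 on the frozen arrays and at 0.83, 0.21 and 0.02 on the vitrified arrays. The frozen values thus spanned more than any other member's, and frozen array 2 was more than 4-fold above its control. The fitted change was 1.11 ± 0.33 (adjusted p = 0.224) after freezing and 0.50 ± 0.33 (adjusted p = 0.470) after vitrification. Without frozen replicate 2 the change after freezing was 0.20. Its 5 probes gave 0.93 to 1.11, but they start between 35238758 and 35238776 and so overlap. The opposite-strand probe R86530 was at 1.13, 0.94 and 0.03 on the vitrified and at -0.48, 1.03 and 0.54 on the frozen arrays. Fitted over the arrays, the change was 0.81 ± 0.26 (adjusted p = 0.212) after vitrification, and the other 4 probes of this EST, from another stretch and dimmer, gave 0.19 to 0.36.

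Among the assembly genes of complex IV, COX11, which delivers copper to the catalytic subunit, was at 0.41, 0.19 and 0.77 on the frozen arrays and at 0.35, -0.11 and -0.13 on the vitrified arrays. All frozen arrays lay above 0, whereas the groups overlapped. The model gave a change of 0.40 ± 0.13 (adjusted p = 0.246) after freezing and -0.02 ± 0.13 (adjusted p = 0.963) after vitrification, and the difference was -0.42 ± 0.18 (adjusted p = 0.652). COX10, which makes the haem of complex IV, had fitted changes of 0.01 and 0.19. TACO1, which activates translation of the mitochondrially encoded subunit COX1, had fitted changes of -0.07 and -0.03.

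The 7 subunits of complex V had a median of -0.08 after vitrification, with 2 above and 5 below 0, and of 0.11 after freezing, with 6 above and 1 below. ATP5F1A, the alpha subunit of the catalytic head, was at 0.23, -0.49 and -0.13 on the vitrified and at 0.93, -0.15 and 0.30 on the frozen arrays. On each replicate number the frozen array was above the vitrified one, and the ranges overlapped. The difference of vitrified from frozen was -0.49 ± 0.20 (adjusted p = 0.649), with a 95% interval of -0.95 to -0.02 before adjustment. ATP5F1B, the catalytic beta subunit, had fitted changes of 0.16 and 0.19, and ATP5F1C, the central stalk, of -0.08 and 0.09. After vitrification the 95% interval held 0 for the alpha subunit (-0.58 to 0.10) and for the beta subunit (-0.24 to 0.56), so neither sign was settled. The difference between treatments was -0.03 for beta and -0.16 for the central stalk.

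ATP5PB, the long helix of the peripheral stalk, was at -0.56, -0.08 and -0.29 on the vitrified and at -0.02, 0.25 and -0.07 on the frozen arrays. Its vitrified arrays all lay below its frozen arrays. With the dye term, the change was -0.25 ± 0.10 (adjusted p = 0.250) after vitrification and 0.11 ± 0.10 (adjusted p = 0.712) after freezing, and the difference was -0.36 ± 0.13 (adjusted p = 0.644). ATP5PO, which joins the peripheral stalk to the head, had fitted changes of -0.05 and -0.10. ATP5MC1, which encodes the c subunit of the proton-driven ring, was at 0.51, 0.19 and -0.08 on the vitrified and at 0.21, 0.12 and 0.08 on the frozen arrays. ATP5MG, the membrane subunit g, had fitted changes of -0.14 and 0.11.

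ATPAF1, the chaperone of the beta subunit in the assembly of the catalytic head, gave the smallest unadjusted p of any member between the treatments. It was at -0.06, -0.02 and -0.06 on the vitrified arrays, closer together than any other member. On the frozen arrays it was at 0.19, 0.52 and 0.71, all above the vitrified values. The fitted change was -0.04 ± 0.12 after vitrification and 0.48 ± 0.12 (adjusted p = 0.168) after freezing. The difference was -0.52 ± 0.16, with a 95% interval of -0.90 to -0.14, an unadjusted p of 0.0138 and an adjusted p of 0.592 in limma. Its 3 probes gave 0.41 to 0.48 after freezing. ATPAF1 and ATP5PB were the members with all vitrified arrays below all frozen arrays, 4.65% of members, where this held for 4.87% of probes.

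**Figure D3:**
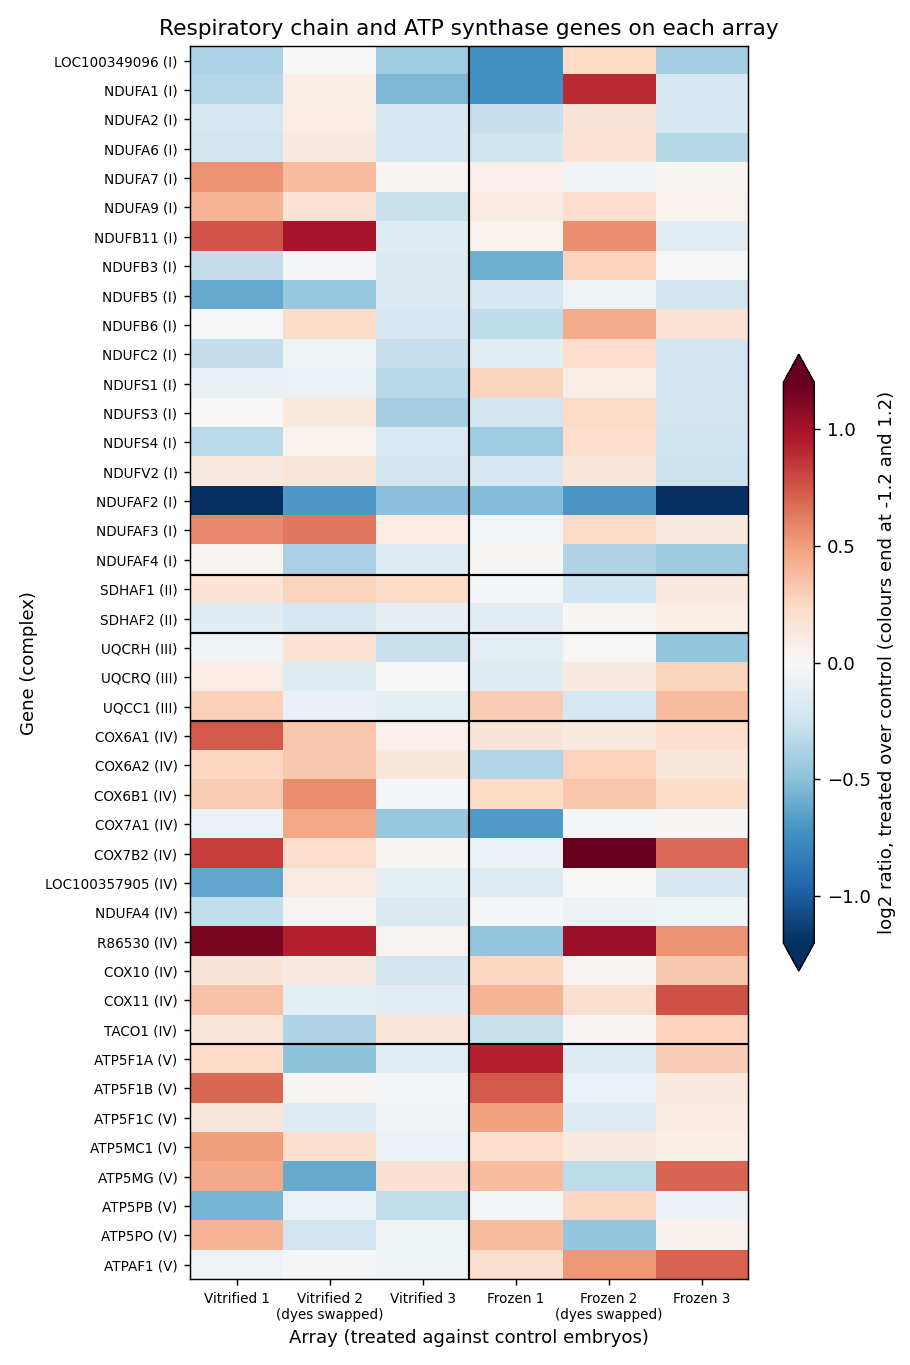
log2 ratio of treated over control for 42 of the genes (rows, grouped by complex) on each of the 6 arrays (columns); red is higher and blue lower in treated embryos. The vitrified 3 column is mostly blue, with 9 of the 43 members above 0, and complex I is mostly blue on the 4 arrays with unswapped dyes.

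The members' median differed more between arrays of 1 treatment than between the treatments. On vitrified arrays 1, 2 and 3 the median over the 43 genes was 0.09, 0.04 and -0.15, with 24, 26 and 9 genes above 0. On frozen arrays 1, 2 and 3 it was -0.03, 0.11 and 0.04, with 18, 28 and 24 above 0. The median of all 8148 genes lay between -0.04 and 0.03 on every array. In vitrified embryos 7 members (16.3%) were above 0 on all 3 arrays and 8 (18.6%) below, where 20.4% and 16.9% of probes were. In frozen embryos 7 (16.3%) were above and 4 (9.3%) below, against 15.7% and 14.7% of probes. Within slide 1 the members' median was 0.09 for its vitrified array and 0.01 over its 2 frozen arrays. Within slide 2 it was -0.07 over 2 vitrified arrays and 0.04 for the frozen one. Leaving out vitrified replicate 3 took the median after vitrification from -0.04 to 0.01.

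The complexes were also compared along the dye orientation. Complex I had medians of -0.08 and -0.20 on vitrified arrays 1 and 3, and of -0.21 and -0.22 on frozen arrays 1 and 3. On the arrays with swapped dyes its medians were 0.08 after vitrification and 0.21 after freezing. Complex V ran the other way, with -0.12 and -0.11 on the swapped arrays and 0.32, -0.06, 0.38 and 0.11 on the others. For 9 of the 19 complex I genes both swapped arrays lay above all the others, where this held for 8.67% of probes. NDUFA1, a small membrane-arm subunit, was the widest of these, at -0.34, 0.08 and -0.53 on the vitrified and at -0.73, 0.89 and -0.20 on the frozen arrays. The array files place some of its overlapping probes on chromosome X and others on chromosome 8. Whether a second copy adds to its signal was not tested. For 3 of the 11 complex IV genes both swapped arrays also lay above all the others. For 4 of the 8 complex V genes both lay below, where this held for 17.4% of probes. The fitted dye term, red over green, was below 0 for 17 of 19 complex I genes (median -0.15) and 7 of 11 complex IV genes (median -0.13) and above 0 for 6 of 8 complex V genes (median 0.18), with a median of 0.02 over all genes. Dye orientation and the extracts of replicate 2 cannot be told apart, and the fitted changes are those with the dye term removed.

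**Figure D4:**
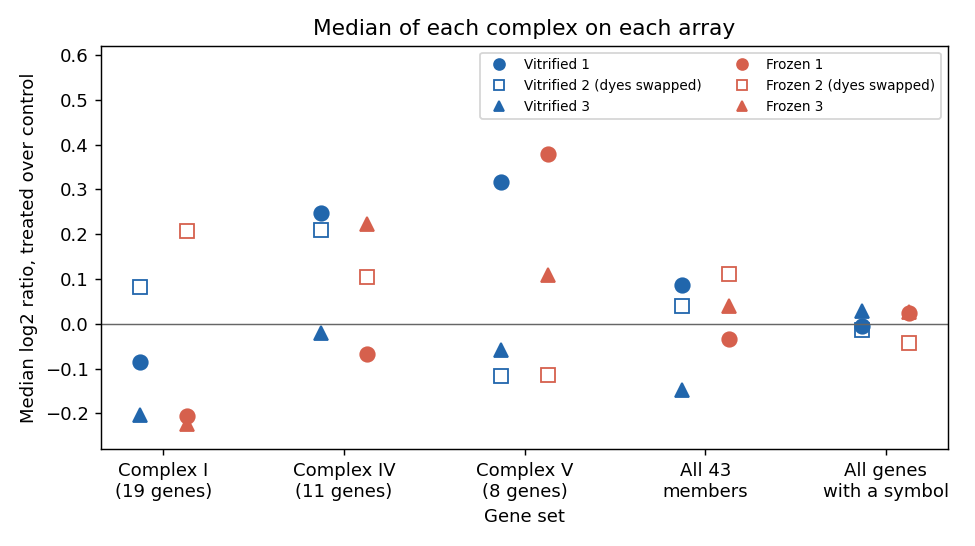
Median log2 ratio of treated over control on each array (vertical axis) for complexes I, IV and V, all 43 members and all genes with a symbol; blue marks vitrified and red frozen arrays, and open squares the arrays with swapped dyes. In complex I the open squares lie above 0 and all other arrays below, and in complex V the open squares lie lowest.

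The base composition of the probes moved with the change after vitrification. Members' probes held a median of 45% G and C bases, with NDUFC2 lowest at 35% and SDHAF1 highest at 75%. The 10 members above 45%, among them NDUFB11, NDUFAF3, NDUFA7, COX6B1 and COX6A2, had a median change of 0.24 after vitrification, and the other 33 a median of -0.07. After freezing the medians were 0.07 and 0.00. Across the 43 genes, which share arrays and probe design, Spearman's rho between G and C content and the change was 0.44 after vitrification and 0.03 after freezing. Across all 8148 genes it was 0.25 and 0.04, so the relation was not confined to the members. With a trend on G and C content removed from each array, NDUFAF2 was at -0.82, NDUFAF3 at 0.40 and NDUFB11 at 0.58 after vitrification, and no member passed. SDHAF1, with the highest G and C content, went from 0.20 to 0.01, NDUFA7 from 0.31 to 0.20 and COX6B1 from 0.32 to 0.22, and COX7A1 turned from 0.07 to -0.0044. The part of base composition or RNA quality in these values was not tested beyond this.

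Subunits that the description rule did not find were taken by symbol. Of 16 such genes 15 were tested, and NDUFA4L2 was not well above background in any channel. None passed the test in any comparison, and their median was -0.07 after vitrification, with 5 above and 10 below 0, and 0.07 after freezing, with 11 above and 4 below. SDHD, a membrane anchor of complex II and the only complex II subunit among them, was at -0.55 after vitrification (adjusted p = 0.182) and at 0.07 after freezing, with a difference of -0.62 (adjusted p = 0.592). COX5B, a matrix-side subunit of complex IV, was at 0.64 and 0.26. The other complex IV subunits of this list, COX6C and COX7B, were at -0.37 and -0.06 after vitrification. NDUFB4 of the complex I membrane arm was at -0.50 and -0.06. The complex I subunits NDUFB8, NDUFS6 and NDUFA12 were at 0.20, 0.20 and -0.08 after vitrification. The core subunits of complex III, UQCRC1 and UQCRC2, were at -0.07 and 0.09 after vitrification, and its other listed subunits UQCRB and UQCR10 at -0.40 and -0.23. ATP5PD, ATP5MC3 and ATP5MJ of complex V were at 0.47, -0.04 and -0.19 after vitrification.

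Markers of cell types were summed on the same arrays. The sums lay wholly outside the control range only for endoderm in frozen embryos and for blood and uterine markers in vitrified embryos. Summed over 8 endoderm markers, the normalised signal was 4454 to 6511 in frozen embryos, 7458 to 13786 in vitrified embryos and 8877 to 15506 in the controls, and APOA2 passed the test lower after freezing (adjusted p = 0.0423). The sum of the 3 epiblast markers was 7673 to 9804 in frozen, 12764 to 15540 in vitrified and 9679 to 18147 in control embryos. The 6 trophectoderm markers summed to 24236 to 27403, 26054 to 31613 and 17754 to 27705. The 3 blood markers ALAS2, HBA and HBB2 summed to 14931 to 163074 in vitrified, 4258 to 40431 in frozen and 2696 to 11530 in control embryos, while PTPRC was not well above background in any channel, nor was the endoderm marker TTR. The 3 uterine markers summed to 3968 to 7018, 1445 to 4139 and 1411 to 3374. Their part in the members' values was not tested.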

How the data were processed

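Per the file headers, the authors' intensity values are a mean spot signal and a median local background for each channel, before any normalisation. The log10 ratio of red over green, which the authors deposited beside them, came from background-subtracted and dye-normalised signals of Agilent Feature Extraction 10.10.1.1 (file headers, submitters' processing notes) and served as an alternative. Here normexp with an offset of 50 and loess with control spots at weight 0 were applied in limma 3.58.1 under R 4.3.3, of 43603 probes the 30761 that were well above background in 3 or more of the 12 channels were tested, and eBayes was fitted with 2 treatment coefficients and a dye term on 3 residual degrees of freedom. The fit was tested on simulated data. Precision is limited by the 6 arrays. Names came from accessions, gene numbers and descriptions in the files and RefSeq's table of assembly mOryCun1.1, which named 40 of the 43 genes.

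Members and lists were chosen with earlier results of these data known. Genes given array by array were the 3 smallest p-values per direction and comparison, the 3 largest mean changes per complex, measured paralogues and NDUFAF2. Values of 1 member are not reported here singly, and it is counted in the summaries. The labels name a shared control extract for same-numbered arrays, and the correlation of such arrays' deviations was 0.02, 0.59 and 0.17. The alternatives covered background, normalisation, filter, dye, block, slide, prior, probes, probe base composition (added after seeing the data) and leaving out each array.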

Additional observations from a re-analysis of the deposited data

How the results depend on the processing

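No member passed in any comparison under any alternative, and the members' medians moved by less than 1 SD between arrays. The median after vitrification ranged from -0.12 with median centring to -0.02 without a dye term, after freezing from 0.01 with slide as a covariate to 0.07 with median centring, and between treatments from -0.11 to 0.01. With the replicate number as a block, random or fixed, 0 members were called and the medians stayed at -0.04, 0.05 and -0.02, and the number of all probes that passed went from 6 to 8 (random) or 0 (fixed) after vitrification and from 57 to 61 or 3 after freezing. Without each array in turn the medians ran from -0.07 to 0.01, from 0.01 to 0.07 and from -0.06 to 0.03. UQCRQ after freezing was at -0.0307 without frozen replicate 2, -0.0147 without frozen replicate 3 and up to 0.19 without the others, so its sign was not settled. NDUFAF2 ran from -0.97 to -0.59 after vitrification and from -1.06 to -0.61 after freezing. The lowest adjusted p of a member without 1 array was 0.0917 after vitrification (without vitrified replicate 3) and 0.0791 after freezing (without vitrified replicate 1). The number of all probes that passed after freezing, behind the background shares, was 57 and ranged from 0 without frozen replicate 2 to 513 without vitrified replicate 1. The SE of a member's change was 0.09 to 0.33, median 0.12, which limits what could pass.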

Other observations

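The other mitochondrial gene lists were measured the same way, and none of their genes passed the test. UCP2, an uncoupling protein of the inner membrane, was at 0.96 after vitrification (adjusted p = 0.144) and 0.67 after freezing (adjusted p = 0.185). Of 14 tested genes for the mitochondrial membranes and protein import, 3 were above and 11 below 0 after vitrification (median -0.16), and 8 above and 6 below after freezing (median 0.10). Among them the fusion protein OPA1 was at -0.60 and -0.31, the cristae protein IMMT at -0.49 and -0.01, and the outer membrane channels VDAC1 and VDAC3 at -0.31 and 0.50 after vitrification. TFAM, which packages and transcribes mitochondrial DNA, was at -0.53 after vitrification and -0.06 after freezing, and the coactivator PPRC1 at 0.58 and 0.17.

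Of 10 citric acid cycle genes, 3 were above and 7 below 0 after vitrification and likewise after freezing, and 2 were higher and 8 lower in vitrified than in frozen embryos, and the isocitrate dehydrogenase subunit IDH3A was at -0.19 after vitrification and 0.37 after freezing, a difference of -0.56 (adjusted p = 0.592). Among 12 genes of ubiquinone synthesis and electron entry, COQ2, which attaches the ubiquinone side chain, was at -0.20 and -0.52 (adjusted p = 0.126 after freezing). Of 24 assembly factors not found by description, 10 were above and 14 below 0 after vitrification (median -0.04), and 13 above and 11 below after freezing. Among them the complex I factor ACAD9 was at -0.48 and -0.18, and the copper chaperone SCO1 at -0.20 and 0.43. The complex III factors UQCC2 and UQCC3 were at 0.39 and 0.37 after vitrification and at -0.17 and 0.03 after freezing.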
